A study of Xenopus laevis with 20 samples.

Results

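Pax3 and Zic1 are transcription factors made together at the neural plate border, the strip of ectoderm between the neural plate and the future epidermis. In frog embryos the border gives rise to the neural crest, the cranial placodes and the hatching gland, and the ratio of the pair is known to bear on which of these forms. Zic1 is also expressed in the anterior ectoderm that becomes placode, whereas Pax3 is known for marking crest and hatching gland precursors.

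The comparison described here asks what changes in Xenopus laevis ectoderm when Pax3 is added to active Zic1. It set 5 explants from embryos injected with both Pax3GR and Zic1GR messages (the combination) against 5 from embryos injected with Zic1GR alone, which are 10 of the 20 arrays of the series. Messages went into embryos of 2 cells, and animal caps, the prospective ectoderm of the blastula, were cut at stage 9. Every explant, controls included, then spent 8 h in dexamethasone. This hormone releases proteins that carry the ligand-binding domain of the glucocorticoid receptor (GR) from the cytoplasm. The remaining 10 arrays, 5 with Pax3GR alone and 5 with GR alone, gave the change on adding Pax3 without Zic1GR. Below, "without Zic1" means without injected Zic1GR, not without zic1 transcript. RNA of single explants (100 ng) was amplified before it was labelled. Neither message amounts nor clutches are given in the labels, so the p-values measure the spread between these explants, whatever its source. Whether the total message was matched is not stated, and an effect of more message cannot be told apart from the addition of Pax3.

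Values are log2 probe set intensities, and array medians lay between 6.10 and 6.30. A probe set was tested where it reached log2 4, taken as the background level, on at least 5 of 20 arrays, which kept 20519 of 32539. Changes were called by limma at a Benjamini-Hochberg adjusted p under 0.05 over all probe sets tested, and "rose" and "fell" mean called changes of the combination relative to Zic1GR. A fold is written "at least" where all 5 arrays of one group lay below log2 4. Where only some arrays did, the fold was taken after values under 4 were set to 4. Gene names ending in .L and .S are the 2 copies (homeologues) that the frog keeps of many genes. A call of 1 copy does not carry over to the other. The array of Zic1GR that correlated least with its group was replicate 5 (mean r = 0.925), and that of the combination was replicate 4 (0.922).

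The injected genes were looked at first. For pax3.S, one probe set of 2 (Xl2.49495.3.S1_x_at) read 13.002, 12.97, 12.98, 12.83 and 12.85 in the combination and 10.95, 10.66, 9.44, 10.71 and 8.27 in Zic1GR. All 5 combination arrays were higher, by 2.92 ± 0.35 (SE) on the log2 scale (adjusted p = 9.66e-06), though no Pax3 message had been injected into the Zic1GR embryos. Without Zic1 the same probe set went from 2.36 ± 0.11 (SD, n = 5) in GR to 13.27 ± 0.045 in Pax3GR. The other (Xl2.49495.3.S1_a_at) was higher by 3.08 in the combination (adjusted p = 3.28e-05). For zic1.S, probe set Xl2.1796.1.S1_at read 12.16 to 13.12 in the combination and 10.22 to 11.74 in Zic1GR, higher by 1.75 (adjusted p = 9.26e-04). Its mean was 13.09 in Pax3GR, where no Zic1 message was injected, and 5.17 in GR. A second one (Xl2.1796.1.S2_at) was higher by 1.22 in the combination than in Zic1GR (adjusted p = 0.0109). Its call was lost when arrays were weighted (adjusted p = 0.116). This probe set averaged 13.98 in Pax3GR and 7.69 in GR. For pax3.L the array holds 5, of which Xl2.45266.1.S2_at rose by 1.42 and another rose 11.3-fold. The other 3 overlapped between the groups and were not called, with group means between 8.11 and 13.91. These 3 were high in GR too, with means of 9.45 or more, whereas the pax3.L probe sets that rose averaged 2.22 and 2.28 there. Nor were the 3 called between Pax3GR and GR (adjusted p of 0.127 to 0.718), although Pax3 message was injected. Whether they report pax3 transcript was not tested, so they are not read as unchanged pax3. Which pax3 and zic1 probe sets the injected messages match is not stated. Injected and native transcripts of a gene therefore cannot be told apart in the groups that received its message.

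Adding Pax3 to Zic1 was followed by changes in both directions, with hatching gland, posterior and border genes among those that rose and placode, cement gland and forebrain genes among those that fell. Of 20519 probe sets 2728 were called (13.3%), of which 1446 (7.05%) were higher and 1282 (6.25%) lower. By at least 2-fold 992 rose and 786 fell (8.67% together). The 5 arrays of one group lay wholly above the 5 of the other for 2209 probe sets (10.8%), 1172 of them higher in the combination and 1037 lower. The first principal component of the 10 arrays held 41.9% of the variance and separated the groups. Zic1GR replicate 5, at -35.68, was the nearest of its group to the combination, whose arrays ran from 45.51 to 103.3. In explants of many cells, fewer cells of a type and less RNA per cell cannot be told apart, and this holds for every gene below.

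The 15 largest rises joined hatching gland, posterior and border genes with secreted and cytoskeletal genes, and the 15 largest falls joined anterior placode and forebrain genes with retinoic acid and BMP feedback genes. The plot of the largest changes shows them array by array.

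**Figure D1:**
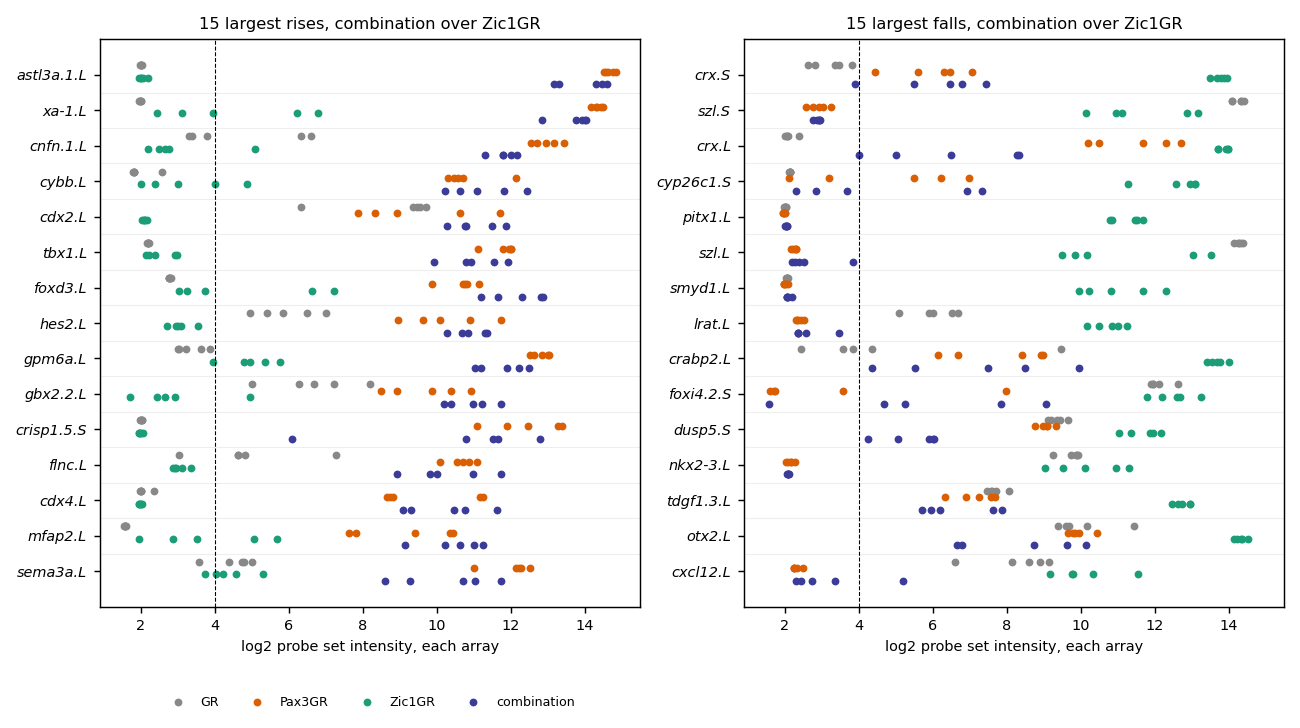
Log2 probe set intensity (x axis) of the 15 largest rises (left) and 15 largest falls (right) of the combination over Zic1GR, with 1 point per array and 5 arrays per group; the dashed line marks log2 4. For astl3a.1.L and cdx4.L the Zic1GR arrays lie near 2 and all combination arrays above 9, and for pitx1.L the combination arrays lie near 2 and the Zic1GR arrays above 10.

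Genes of the posterior body rose, 13 of the 14 tested. The Hox proteins and the caudal factors (Cdx) that help switch Hox genes on give the trunk and hindbrain their positions along the axis. The caudal gene cdx4.L (Xl2.26888.1.S2_at) read 10.76, 11.63, 10.47, 9.07 and 9.3 in the combination and 1.95, 2.01, 1.96, 1.98 and 2.03 in Zic1GR. The groups did not overlap, and cdx4.L rose at least 76-fold (adjusted p = 2.55e-09). Its relative cdx2.L (Xl2.1803.1.S1_at) read 10.77, 11.49, 11.86, 10.77 and 10.28 against 2.04, 2.11, 2.08, 2.09 and 2.16. It rose at least 131-fold (adjusted p = 3.25e-08), and here the control caps were not low, at 8.88 ± 1.43 (SD, n = 5).

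Of 40 genes of the Hox, caudal and posterior list on the array 14 were tested, and 13 of these rose and 0 fell, with a median log2 difference of 4.38 (3.49 with values under 4 set to 4). Over all 8397 named genes tested, each by its probe set of highest mean, 6.54% rose and 6.57% fell, and the median was -0.028. A gene high in 1 group alone can pass the filter on low values, so such a list holds genes that had to differ. The counts are therefore given as a description.

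The homeobox gene gbx2.2.L, which marks the neural plate border and hindbrain behind the midbrain boundary, read 10.38, 10.98, 11.21, 10.19 and 11.74 against 2.93, 4.94, 2.43, 2.64 and 1.71. All combination arrays exceeded 10, while 4 of 5 Zic1GR arrays lay below 4, and the gene rose 105-fold (adjusted p = 4.74e-08). The tail and posterior mesoderm gene evx1.L rose by 5.39 ± 0.35 (SE), from 6.63 ± 1.02 to 12.03 ± 0.24 (SD, n = 5). The zinc finger gene znf703.S rose by 5.72 ± 0.19, from 6.23 ± 0.17 to 11.95 ± 0.4, and had the smallest adjusted p of the list (4.05e-13). The Hox partner genes meis3.L and meis3.S rose by 2.65 and 1.89.

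Hox genes themselves were chosen for naming after their values were seen. The hindbrain gene hoxa2.L read 8.05, 7.3, 8.6, 10.06 and 7.02 in the combination and 2.44, 2.58, 2.51, 2.56 and 5.06 in Zic1GR. All 5 combination arrays were higher (adjusted p = 1.58e-05), and Zic1GR replicate 5 was the only array of its group above 4. Its level of 8.21 ± 1.21 in the combination (SD, n = 5) stood beside 10.32 ± 0.48 in control caps and 7.41 ± 1.25 with Pax3GR alone. The more posterior hoxb4.S was uneven, at 2.72, 7.7, 9.04, 7.56 and 3.97, with replicates 1 and 5 below 4 as all Zic1GR arrays were (adjusted p = 0.0166, or 0.0564 with values under 4 set to 4). A member not called, meis2.L, lay at 8.73 and 8.81.

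Anterior genes fell. The homeobox gene pitx1.L, which marks the cement gland and the anterior placodal ectoderm of the future mouth, read 11.66, 11.46, 10.80, 11.52 and 10.83 with Zic1GR and 2.03, 2.04, 2.05, 2.02 and 2.05 in the combination (Xl2.522.1.S1_at). No combination array reached even log2 2.1, and pitx1.L fell at least 153-fold, with the smallest adjusted p of all genes named (9.87e-19). With Pax3GR alone and with GR alone it was also below background, at 1.99 ± 0.028 and 2.02 ± 0.02 (SD, n = 5).

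In the preplacodal and placode list 15 of 27 genes were tested, and 0 rose and 11 fell (73.3%, against 6.57% over all genes). The median difference was -4.94 (-4.02 with values under 4 set to 4). The pituitary and forebrain factor hesx1.L read 10.41, 8.97, 8.35, 11.41 and 9.72 with Zic1GR and stayed below 2 on every combination array, at least 54.6-fold lower (adjusted p = 2.41e-11). The proneural gene neurog2.S, which starts sensory neurons in placodes and neural plate, fell at least 34.2-fold, from 9.1 ± 1.19 (SD, n = 5). The forkhead gene foxi4.2.S was less even, at 9.06, 5.25, 4.68, 1.56 and 7.85 in the combination against 12.19, 12.67, 13.25, 11.79 and 12.61. Its 5 combination arrays all lay below the Zic1GR arrays, with replicate 4 at background and replicate 1 at the top, and the difference was 6.82 ± 1.22 (SE, adjusted p = 7.75e-04). Control caps were also high in foxi4.2.S, at 12.10 ± 0.31 (SD, n = 5). Without Zic1 it changed by -8.79 on adding Pax3 (adjusted p = 1.35e-05). The difference between the changes with and without Zic1 was not called (adjusted p = 0.391). The 4 members not called were irx1.L, irx2.L, irx3.L and pax2.L. The most abundant of them, the Iroquois gene irx2.L, lay at 12.32 and 12.77 (adjusted p = 0.33).

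The cement gland is the mucus-secreting organ at the front of the tadpole's head. All 16 of its listed genes on the array were tested, and 0 rose (1 without combination replicate 4) and 10 fell (62.5%, against 6.57% over all genes). The median difference was -4.13 (-3.96 with values under 4 set to 4). The list shares pitx1, hesx1, crx and otx2 with the placode and neural lists. Outside those, the secretory protein gene agr2.L fell by 5.14 (adjusted p = 8.72e-06) and its copy agr2.S by 4.6 (adjusted p = 0.00297). The gland gene ag1.L fell by 1.67, from 13.94 to 12.27 (adjusted p = 0.00145). It was also abundant in control caps, at 13.26 ± 0.25 (SD, n = 5). The copy ag1.S was not called (adjusted p = 0.127). Nor were tmem45b.L and tmem45b.S (adjusted p = 0.913 and 0.106), dlx3.L and dlx3.S (0.201 and 0.305) or otx1.L (0.0767). Outside pitx1, hesx1, crx and otx2, only agr2.L, agr2.S and ag1.L thus fell.

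Some forebrain and eye genes fell as well. The head organiser and forebrain gene otx2.L (Xl2.47281.1.S1_at) read 9.63, 6.79, 8.72, 6.65 and 10.14 in the combination and 14.23, 14.13, 14.34, 14.33 and 14.52 in Zic1GR. The groups were apart by over 3.9 units at their nearest arrays, with combination replicates 2 and 4 lowest, and otx2.L fell by 5.92 ± 0.55 (SE, adjusted p = 4.73e-07). Its copy otx2.S fell by 3.66 (adjusted p = 1.65e-06). The related homeobox gene crx, of retina and cement gland, fell 209-fold for crx.S (adjusted p = 9.22e-09) and 173-fold for crx.L (adjusted p = 3.13e-07). The combination arrays of crx.L were spread, at 8.33, 8.28, 4.0, 6.48 and 5.0, below the Zic1GR arrays at 13.70 to 13.98.

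Of 43 neural plate, eye field and neuron genes 30 were tested (median -1.45). Among these 1 rose (3.33%) and 14 fell (46.7%), against 6.54% and 6.57% over all genes. The forebrain repressor gene fezf2.L fell at least 18.2-fold (adjusted p = 5.71e-08), with all combination arrays below 2.1. The early neural gene sox3.L fell at least 18.6-fold (adjusted p = 2.67e-07), and the more abundant sox3.S fell by 3.02 to 10.17 (adjusted p = 1.44e-04). The member that rose was hes1.L, a Notch target, by 0.91 (adjusted p = 0.00407), and without combination replicate 5 there were 3. Its copy hes1.S was not called (adjusted p = 0.117). The pan-neural gene sox11.S lay at 13.06 and 13.32 and was not called (adjusted p = 0.697). Nor were the forebrain and eye genes six3.L, six6.L, six6.S, otx1.L and emx2.L (adjusted p = 0.15, 0.932, 0.2, 0.0767 and 0.12). The copy six3.S did fall (adjusted p = 0.00619, or 0.058 with values under 4 set to 4). The plot of posterior and anterior genes sets both groups of genes side by side.

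**Figure D2:**
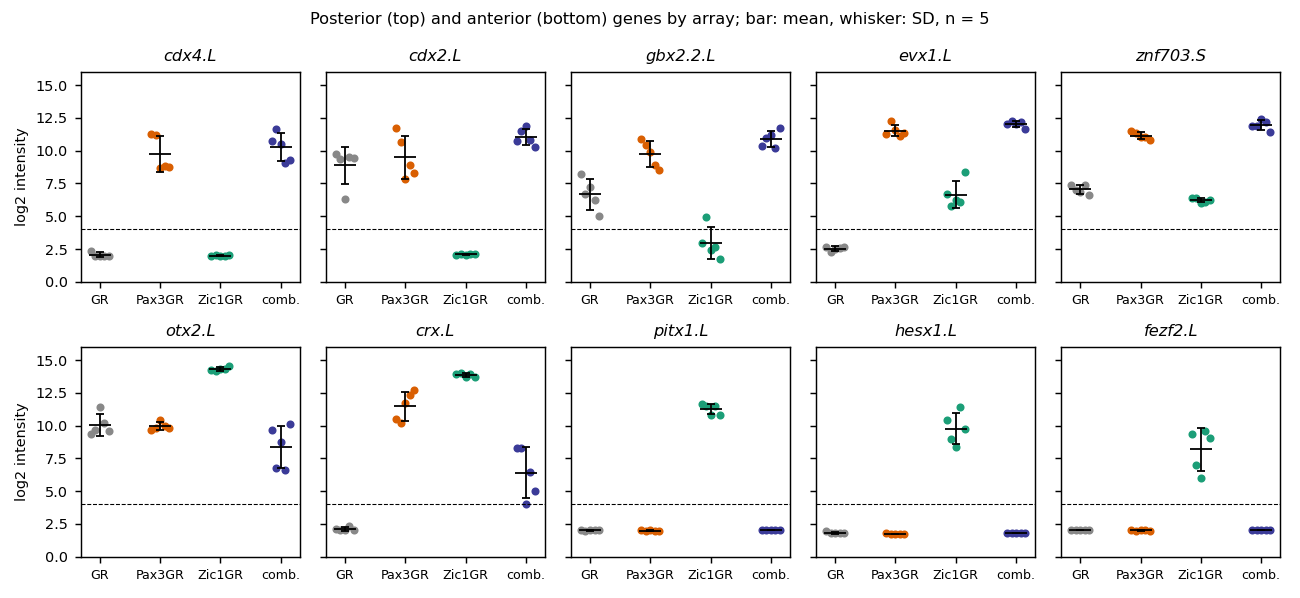
Log2 intensity (y axis) of 5 posterior genes (top) and 5 anterior genes (bottom) in the 4 injections, with 1 point per array, a bar at the mean and a whisker of 1 SD (n = 5); the dashed line marks log2 4. The top genes are higher in the combination than in Zic1GR on every array and the bottom genes lower, and pitx1.L, hesx1.L and fezf2.L are above the line with Zic1GR alone. The genes were taken from the largest changes and the list members of smallest adjusted p, so their separation follows largely from the choice.

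The hatching gland, a border derivative whose proteases free the larva from its membrane, held the gene with the largest rise of those named. The protease gene astl3a.1.L (Xl2.120.1.S1_at) read 14.30, 14.59, 13.31, 14.47 and 13.17 in the combination and 2.21, 2.01, 1.96, 2.0 and 2.06 in Zic1GR. It was at background on every Zic1GR array and above 13 on every combination array, at least 1000-fold higher (adjusted p = 2.45e-17). The gland gene xa-1.L (Xl2.5797.1.S1_at) read 13.76, 12.83, 14.03, 13.99 and 13.93 against 6.79, 3.11, 2.45, 3.94 and 6.23. It rose 417-fold (adjusted p = 3.47e-09), and Zic1GR replicates 1 and 5 already stood above 6.

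Of 7 hatching gland genes 5 were tested, and 3 rose (60%, against 6.54% over all genes) and 0 fell. The protease gene astl2e.2.L rose at least 32.7-fold to 8.78 ± 3.59 (SD, n = 5, adjusted p = 3.89e-04). The other 2 tested members, klf17 genes for a zinc finger factor of gland and border, were not called. They lay at 12.59 and 13.08 for klf17.1.S and at 12.15 and 12.38 for klf17.L. Combination replicate 2 had the lowest list mean, 10.9, against 12.4 to 12.81 for the other arrays of its group.

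Among the other large rises cnfn.1.L, a relative of a cornified envelope protein, reached 11.81 ± 0.33 from 3.04 ± 1.16 (SD, n = 5). Its .S copy was not tested, and lay below 4 on all combination arrays and at 2.39 to 5.81 in Zic1GR. The NADPH oxidase gene cybb.L reached 11.24 ± 0.9 (134-fold), and the secreted cysteine-rich protein gene crisp1.5.S read 10.78, 6.08, 12.79, 11.51 and 11.66 against a highest Zic1GR value of 2.05. Combination replicate 2 was thus the lowest for crisp1.5.S as it was for xa-1.L. The pharyngeal T-box gene tbx1.L rose at least 130-fold (adjusted p = 4.5e-13), and its .S copy was below background in all groups. The actin crosslinker gene flnc.L rose at least 78.3-fold, the neuronal membrane glycoprotein gene gpm6a.L 111-fold, and the microfibril gene mfap2.L 59.6-fold. The copy mfap2.S was 5.25 against 3.66 (adjusted p = 0.0428), a call that any of 7 arrays left out ended, with adjusted p up to 0.103. The fit without Pax3GR and GR arrays ended it too (adjusted p = 0.177).

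Border genes rose more often than they fell. Of 23 on the array 22 were tested, and 13 rose (59.1%) and 1 fell (4.55%), against 6.54% and 6.57% over all genes. Their median difference was 1.33. The list holds pax3 and zic1 themselves, and the rises of pax3.S and zic1.S count among the 13. Injected and native transcripts cannot be told apart for them, and pax3.L entered by a probe set not read as pax3 above. The homeobox gene msx1.L, a border factor that BMP signals induce, read 13.60, 13.65, 13.69, 13.67 and 13.51 in the combination and 11.63, 12.02, 11.71, 11.10 and 11.65 in Zic1GR. The groups were well apart and narrow, and msx1.L rose by 2.0 ± 0.15 (SE, adjusted p = 1.58e-08). Its copy msx1.S rose by 1.44 and msx2.L by 2.82. The AP-2 gene tfap2e.L rose 10.1-fold and tfap2b.L by 2.72, whereas tfap2a.L, the most abundant AP-2 gene, lay at 13.35 and 13.14 (adjusted p = 0.516). Further zic genes rose, zic5.S by 3.2, zic2.L by 1.52 and zic4.L 9.06-fold. The member that fell was dlx5.L, by 0.79 (adjusted p = 6.62e-04). Both gbx2.1.S and gbx2.2.L rose as members of this list and of the posterior list, so those counts are not separate.

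Genes of the neural crest, the migratory cells that form pigment, peripheral neurons and face skeleton, moved both ways. Of 32 on the array 26 were tested, and 9 rose (34.6%) and 6 fell (23.1%), against 6.54% and 6.57% over all genes. Their median difference was 0.81. The crest specifier foxd3.L (Xl2.525.1.S1_at) read 11.66, 11.20, 12.82, 12.85 and 12.31 in the combination and 6.63, 3.26, 3.04, 7.22 and 3.74 in Zic1GR. It rose 128-fold (adjusted p = 2.3e-07), and Zic1GR replicates 1 and 4 stood above the rest of their group. The copy foxd3.S rose 21.2-fold (adjusted p = 0.00259), and combination replicate 1, at 8.62, lay below the highest Zic1GR array, replicate 4 at 8.69.

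The crest factor ets1.S rose by 2.92 ± 0.25 (SE), from 9.75 ± 0.33 to 12.67 ± 0.31 (SD, n = 5). Its copy ets1.L was not called (adjusted p = 0.526). The snail gene snai2.L, named after its values were seen, read 13.01, 13.06, 13.52, 13.39 and 13.49 against 10.13, 8.0, 5.36, 10.13 and 7.38. All combination arrays were above 13, and the Zic1GR arrays were low and spread (adjusted p = 8.19e-05). The skeletal crest gene sox9.L, likewise chosen afterwards, rose by 3.51 and sox8.L by 1.95. On the other side the chemokine gene cxcl12.L, whose protein guides migrating crest, fell 58.7-fold (adjusted p = 4.99e-08). It read 2.73, 3.34, 2.43, 2.31 and 5.2 in the combination, where only replicate 5 passed 4, against 9.16 to 11.53. The adhesion gene cdh11.S fell at least 7.2-fold (adjusted p = 5.58e-06). The stem cell and crest gene myc.L, abundant in both groups at 13.50 and 13.60, was not called (adjusted p = 0.735). Its copy myc.S was called (adjusted p = 0.0221), but not without Zic1GR replicate 1 or 2 (adjusted p up to 0.0657). The related mycn.L was called too (adjusted p = 0.00721). Also called were snai1.S, sox9.S, id3.L, id3.S and cxcr4.S (adjusted p = 0.0281, 0.00178, 0.0227, 0.00551 and 0.0408). Leaving out some single arrays ended the calls of snai1.S, id3.L and cxcr4.S (adjusted p up to 0.0598, 0.0587 and 0.116). The crest genes given with a direction here cover more of the rises than of the falls.

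Retinoic acid is made from vitamin A, cleared by Cyp26 enzymes and read by nuclear receptors, and it posteriorises the neural plate. Of 22 genes 15 were tested, and 2 rose (13.3%) and 7 fell (46.7%), against 6.54% and 6.57% over all genes. Their median difference was -0.59. The enzyme gene lrat.L, which stores retinol as an ester, read 2.37, 2.36, 3.45, 2.35 and 2.56 in the combination and 11.24, 10.84, 10.17, 11 and 10.48 in Zic1GR. No combination array passed background, and lrat.L fell at least 107-fold (adjusted p = 4.5e-13). The clearing enzyme gene cyp26c1.S read 2.85, 2.3, 6.93, 3.69 and 7.32 against 13.08, 12.56, 11.26, 13.07 and 12.96, with combination replicates 3 and 5 near 7 and the others below 4. It fell 162-fold (adjusted p = 1.2e-05), and cyp26a1.L and cyp26a1.S fell 50-fold and 45.4-fold.

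The binding protein gene crabp2.L fell by 6.52 ± 1.14 (SE) and was spread in the combination, at 8.48, 7.49, 5.51, 4.36 and 9.96 against 13.40 to 14.01. The retinoid carrier gene ptgds.S fell by 3.22 and the receptor gene rarg.S by 0.59. Rising members were the receptor gene rara.L, 2.92-fold (adjusted p = 2.87e-04), and dhrs3.L, a reductase that returns retinal to retinol, by 1.89 (adjusted p = 0.0113). The synthesis gene aldh1a2.L lay at 9.73 and 9.24 (adjusted p = 0.622), and the receptor gene rxrb.S at 13.45 and 13.50.

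BMP signals specify epidermis at high level and border at intermediate level, and their targets include feedback inhibitors. Of 47 genes 39 were tested, and 3 rose (7.69%) and 18 fell (46.2%), against 6.54% and 6.57% over all genes. Their median difference was -0.79. The risen number was 1 without combination replicate 4 or Zic1GR replicate 2. Sizzled, a BMP-induced protein that protects the antagonist Chordin from cleavage, fell in both copies. The gene szl.S (Xl2.3606.1.S1_at) read 2.95, 2.86, 2.92, 2.77 and 2.93 in the combination and 10.94, 10.13, 13.15, 11.10 and 12.87 in Zic1GR, and it fell at least 199-fold (adjusted p = 2.93e-11). The copy szl.L fell at least 148-fold (adjusted p = 1.34e-08). Control caps were higher still for both, at 14.24 ± 0.15 and 14.27 ± 0.088 (SD, n = 5).

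Among the ligands, bmp4.S fell by 1.93 ± 0.23 (SE, adjusted p = 7.4e-06) and bmp7.2.L by 2.47. In contrast bmp2.S rose by 2.6 (adjusted p = 8.35e-05). The ligand genes bmp4.L and bmp7.1.L were not called (adjusted p = 0.553 and 0.127). The homeobox targets ventx2.1.S fell by 2.29, the GATA genes gata3.S and gata2.L by 4.12 and 2.21, and the pseudoreceptor gene bambi.L by 2.42. The protease gene tll1.S, which cleaves Chordin, fell by 2.12. The antagonist gene chrd.1.S was higher by 0.97 (adjusted p = 0.0451), a call that any of 7 arrays left out ended (adjusted p up to 0.101), and nog.L lay at 9.95 and 9.26 (adjusted p = 0.251).

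Of 61 Wnt genes 35 were tested, and 15 rose (42.9%) and 4 fell (11.4%), against 6.54% and 6.57% over all genes. Their median difference was 0.66. The ligand gene wnt8a.L, a posteriorising signal, rose by 4.23 (adjusted p = 6.6e-07) and wnt3a.S at least 3.22-fold. Among receptors and co-receptors, kremen2.S rose 28.6-fold (adjusted p = 1.37e-07) and fzd10.L 8.35-fold. The nuclear effector gene lef1.S rose by 3.98 ± 0.37 (SE, adjusted p = 4.97e-07), from 5.83 ± 0.45 to 9.81 ± 0.81 (SD, n = 5). The common target and feedback genes axin2.L and axin2.S rose by 2.36 and 2.31. The gene sp5.S rose 14.2-fold, while its copy sp5.L was not called (adjusted p = 0.057). The repressor gene tcf7l1.L, which keeps Wnt targets off in anterior cells, fell by 2.14 (adjusted p = 3.03e-08) and tcf7l1.S 44.3-fold. The secreted Wnt inhibitor gene frzb fell 9.29-fold, whereas frzb.L was not called (adjusted p = 0.528). The hub gene ctnnb1.L lay at 14.18 and 14.18, and the sign of its difference, not called, changed with the processing.

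**Figure D3:**
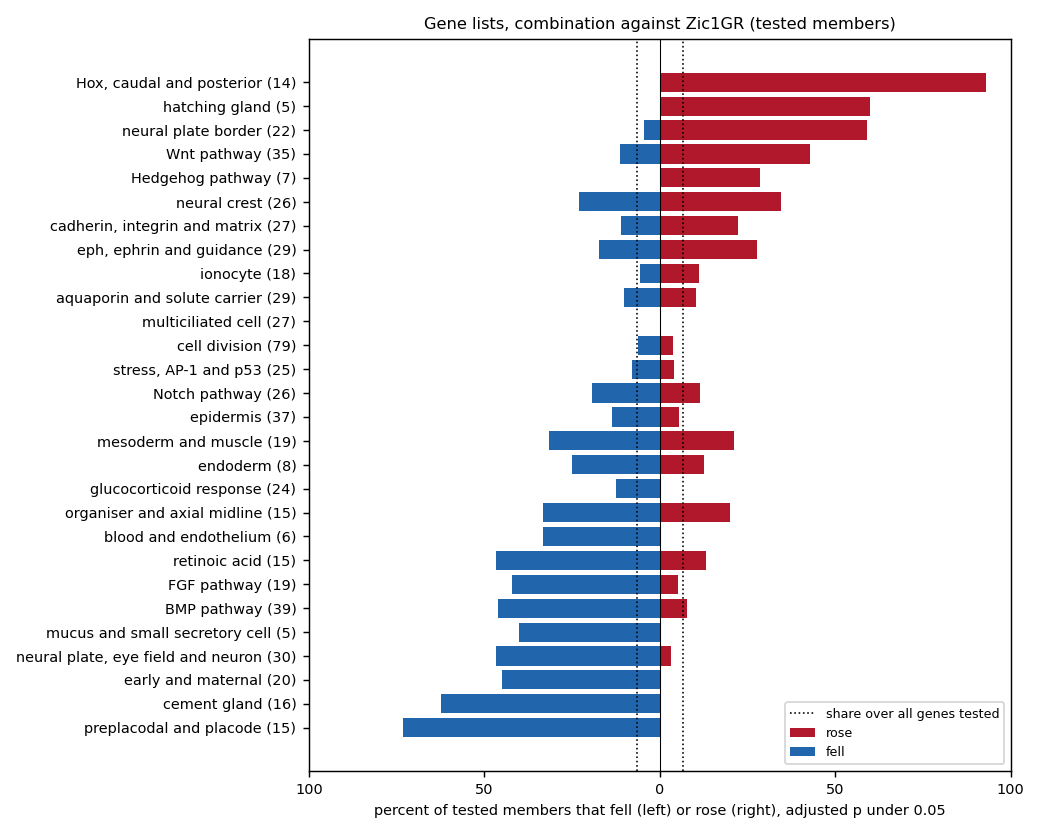
Percent of the tested members of each gene list that rose (red, right) or fell (blue, left) in the combination against Zic1GR at an adjusted p under 0.05, with the number tested in brackets; dotted lines mark the shares over all 8397 genes, 6.54% and 6.57%. Posterior, hatching gland and border genes lie at the top with 13 of 14, 3 of 5 and 13 of 22 risen, placode and cement gland genes at the bottom with 11 of 15 and 10 of 16 fallen.

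FGF genes fell more often than they rose. Of 30 genes 19 were tested, and 1 rose (5.26%) and 8 fell (42.1%), against 6.54% and 6.57% over all genes. Their median difference was -1.22, or -0.34 with values under 4 set to 4. The phosphatase gene dusp5.S, a feedback inhibitor of ERK signalling, read 5.91, 6.01, 4.25, 6.02 and 5.07 in the combination and 11.88, 11.93, 12.15, 11.36 and 11.02 in Zic1GR. The groups were over 4.9 units apart at their nearest arrays, and dusp5.S fell by 6.22 ± 0.29 (SE, adjusted p = 3.11e-11). The ligand gene fgf8.L fell by 1.57 (adjusted p = 0.0258, not called without Zic1GR replicate 3 or 4 or combination replicate 5, with adjusted p up to 0.0596). The feedback gene dusp6.L fell by 1.33 and the receptor gene fgfr4.S by 1.22. Their copies dusp6.S and fgfr4.L were not called (adjusted p = 0.404 and 0.921). The member that rose was the decoy receptor gene fgfrl1.L, by 1.71, and without combination replicate 3 there were 2. The target gene etv4.L lay at 13.04 and 12.82 (adjusted p = 0.374).

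For the Notch list 26 of 31 genes were tested (median -0.12). Rises numbered 3 (11.5%) and falls 5 (19.2%), against 6.54% and 6.57% over all genes. The bHLH repressor gene hes2.L rose at least 118-fold (adjusted p = 5.21e-10) with no overlap, at 10.26 to 11.35 against 2.72 to 3.54. Its relative hes7.2.L fell at least 10.1-fold (adjusted p = 1.26e-10), and the ligand gene dll1.L fell by 2.59 (adjusted p = 6.41e-07) while jag1.L rose by 1.32 (adjusted p = 3e-04). The receptor gene notch1.S lay at 12.26 and 12.63. Of 15 Hedgehog genes 7 were tested, and the co-receptor genes boc.L and cdon.L rose (28.6%, against 6.54% over all genes). The rise was 2.07 for boc.L and at least 1.29-fold for cdon.L. The call of cdon.L was lost without combination replicate 3 or 4 (adjusted p = 0.0571 and 0.0665) and with values under 4 set to 4 (adjusted p = 0.272).

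Markers of other germ layers that a cap could hold were examined next. In the organiser and midline list 15 of 30 genes were tested. Rises numbered 3 (20%) and falls 5 (33.3%), against 6.54% and 6.57% over all genes. The head organiser gene gsc.L fell at least 6.45-fold (adjusted p = 6.48e-10), to below 2 on every combination array. The node and notochord genes not.L and not.S fell 5.87-fold and at least 3.29-fold. The endoderm and floor plate gene foxa2.L rose 13.6-fold (adjusted p = 9.44e-06), and the secreted head inducer gene cer1.S rose at least 13.1-fold (adjusted p = 4.76e-04). The pan-mesodermal gene tbxt.S averaged 3.57 and 3.61, both under log2 4.

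On the mesoderm and muscle list 19 of 50 genes were tested. Rises numbered 4 (21.1%) and falls 6 (31.6%), against 6.54% and 6.57% over all genes. The homeobox gene nkx2-3.L read 9.02 to 11.29 with Zic1GR and 2.07 to 2.1 in the combination, at least 72.2-fold lower (adjusted p = 1.45e-12), and nkx2-3.S fell at least 14.7-fold. Both were also present in control caps, at 9.74 and 7.98. The T-box gene tbx2.L fell at least 27.2-fold (adjusted p = 3.11e-11). The muscle gene myf5.L, named after its values were seen, read 8.45, 9.18, 1.96, 9.16 and 1.95 in the combination, so that 3 arrays were well above background and 2 were not. All Zic1GR arrays lay below 2 (adjusted p = 0.0221), and the call was lost without any one of the 3 high arrays (adjusted p up to 0.0654). The muscle genes tnni2.S and myod1.S were called as well (adjusted p = 3.79e-05 and 0.0264). The call of myod1.S was lost without any one of 5 arrays (adjusted p up to 0.074). The 4 rises include tbx1.L, wnt8a.L and myf5.L, so tnni2.S and myod1.S did not both rise. Outside the lists the muscle methyltransferase gene smyd1.L fell at least 127-fold, from 11.69, 10.82, 9.95, 12.30 and 10.21 to a highest combination value of 2.2. The Nodal co-receptor gene tdgf1.3.L fell by 6.07 ± 0.36 (SE, adjusted p = 1.03e-09). Array means of the mesoderm list ran from 4.431 to 5.984 in the combination and from 5.468 to 6.318 in Zic1GR. The part of these cells in the changes above was not tested.

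Few endoderm and blood genes were tested, 8 of 19 and 6 of 18. In the endoderm list cer1.S rose (12.5% of those tested) and gata5.S and a2m.S fell (25%), gata5.S at least 1.66-fold and a2m.S by 1.93. The call of gata5.S was lost when values under 4 were set to 4 (adjusted p = 0.304), and that of a2m.S without any one of 9 of the 10 arrays (adjusted p up to 0.108). From the blood list the granulocyte and fat cell factor genes cebpa.L and cebpa.S fell 28.7-fold and at least 10.3-fold (adjusted p = 1.15e-06 and 2.56e-04). These were 33.3% of the blood genes tested, whereas over all genes 6.54% rose and 6.57% fell. The larval globin gene hba-l5.L lay at 12.48 and 11.40, with Zic1GR replicate 5 at 13.3 above the others of its group. Array means were 5.267 to 6.409 in the combination and 4.901 to 6.218 in Zic1GR for the endoderm list, and 7.162 to 8.001 and 8.065 to 9.498 for the blood list.

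Of 46 epidermal genes 37 were tested, and 2 rose (5.41%) and 5 fell (13.5%), against 6.54% and 6.57% over all genes (median -0.1). The basal epidermis factor tp63.S read 5.94, 6.2, 7.35, 8.67 and 9.08 in the combination and 3.29, 4.88, 3.7, 3.12 and 4.26 in Zic1GR. All combination arrays were higher, by 3.6 ± 0.6 (SE, adjusted p = 4.34e-04) as fitted or 9.32-fold, and tp63.L rose at least 4.71-fold (adjusted p = 0.00294). Control caps stood at 9.3 ± 1.14 and Pax3GR at 3.2 ± 0.41 for tp63.S (SD, n = 5). The falling members were gata3.S, gata2.L, itga6.L, krt19.L and krt18.1.L, the last by 0.91. The call of krt19.L (adjusted p = 0.0448) was lost without any one of 8 of the 10 arrays (adjusted p up to 0.105). The copies krt19.S and krt18.1.S were not called (adjusted p = 0.159 and 0.664). The keratin gene krt70.S lay at 14.92 and 14.96 (adjusted p = 0.774).

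None of 27 multiciliated cell genes tested, of 30 on the array, was called by limma (1 at an unadjusted p under 0.05, 2 called with array weights, and 1 without combination replicate 3 or Zic1GR replicate 3 or 5), and explants differed widely. The mean of the list ran from 6.098 (replicate 4) to 9.626 in the combination and from 6.531 (replicate 2) to 9.59 in Zic1GR, below the 11.21 to 12.29 of control caps. The ciliary regulator foxj1.S showed this, at 11.67, 10.30, 9.19, 3.48 and 11.70 in the combination and 3.2, 3.86, 11.51, 10.05 and 11.15 in Zic1GR. Combination replicate 4 and Zic1GR replicates 1 and 2 lay below 4 while all others stood above 9, so a difference between groups was not detectable here. For the ionocytes 18 of 26 genes were tested, with 2 risen (11.1%) and 1 fallen (5.56%), against 6.54% and 6.57% over all genes. Array means were 5.518 to 7.24 in the combination against 5.444 to 7.918 in Zic1GR. The fallen one was the proton pump gene atp6v1b1.L, 6.29-fold, not called without combination replicate 3 or 4 (adjusted p = 0.0545 and 0.0548). Of the risen ones the carbonic anhydrase gene ca2.S lost its call without combination replicate 2 or 4 (adjusted p = 0.059 and 0.0669). It also lost it with values under 4 set to 4 (0.0658) and in the fit without Pax3GR and GR arrays (0.116). The anion exchanger gene slc4a1.L lost it without any one of 9 of the 10 arrays (adjusted p up to 0.0965). From the mucus cell list 5 of 9 genes were tested, and the 2 that fell (40%, against 6.57% over all genes) were the agr2 copies. The list's own lectin gene itln1.L lay at 12.87 and 12.22 (adjusted p = 0.769).

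Genes of cell contact and guidance moved in both directions. Of 39 Eph, ephrin and guidance genes 29 were tested. Rises numbered 8 (27.6%) and falls 5 (17.2%), against 6.54% and 6.57% over all genes. The secreted guidance gene sema3a.L rose 57.5-fold (adjusted p = 1.22e-07), from 4.37 ± 0.61 to 10.27 ± 1.29 (SD, n = 5), and the receptor gene robo1.L rose at least 9.94-fold (adjusted p = 4e-08). The Eph receptor genes ephb3.L and ephb4.L fell by 2.34 and 2.27 (adjusted p = 9.14e-09 and 1.81e-05). Of 32 cadherin, integrin and matrix genes 27 were tested, and 6 rose (22.2%) and 3 fell (11.1%), against the same shares over all genes. The neural cadherin gene cdh2.L rose by 1.74 and the fibronectin receptor gene itga5.S at least 2.36-fold, while the hyaluronan synthase gene has2.S fell 10.4-fold (adjusted p = 1.63e-04). The copies cdh2.S and itga5.L were not called (adjusted p = 0.343 and 0.0816). The integrin gene itgb1.L lay at 13.36 and 13.40.

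In the aquaporin and solute carrier list 29 of 47 genes were tested, and 3 rose (5 without Zic1GR replicate 5, 6 with array weights) and 3 fell. Each share was 10.3%, against 6.54% risen and 6.57% fallen over all genes. The glucose transporter gene slc2a1.L fell by 3.81 ± 0.28 (SE), from 11.92 ± 0.16 to 8.11 ± 0.46 (SD, n = 5). A probe set named aqp3-a fell by 3.61 (adjusted p = 2.16e-07), whereas the water channel gene aqp3.L lay at 13.15 to 14.01 and 13.76 to 14.33 (adjusted p = 0.61). Of 31 early and maternal genes 20 were tested, and 0 rose (1 without combination replicate 3 or 5). Falls numbered 9 (45%, against 6.57% over all genes), among them sox3 and ventx genes. The pluripotency gene pou5f3.2.L fell by 2.34 (adjusted p = 0.00191), and pou5f3.1.L lay at 13.02 and 13.28.

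Of 79 cell division genes tested (83 on the array) 3 rose (3.8%) and 5 fell (6.33%), against 6.54% and 6.57% over all genes. The number that fell was 2 without Zic1GR replicate 1, 3 without Zic1GR replicate 3 or 4 or combination replicate 1 or 5, and 9 with array weights. The mitotic inhibitor kinase gene wee1.S rose by 0.81 (adjusted p = 3.34e-04), and the phosphatase gene cdc25b.L fell at least 3.19-fold (adjusted p = 0.00109). Of 25 stress genes tested (28 on the array) 1 rose and 2 fell. These shares, 4% and 8%, were near those over all genes. The number that rose was 2 without combination replicate 3 or 5 or Zic1GR replicate 3 or 5, and 4 with array weights. The gene ddit4.S rose by 1.1 and gadd45g.L fell by 3.13. The call of the other fallen gene, btg2.S, was lost without Zic1GR replicate 3 (adjusted p = 0.0549). The copy gadd45g.S was not called (adjusted p = 0.687). Since all explants received dexamethasone, 24 of 30 glucocorticoid response genes were examined too. By limma none rose and 3 fell (12.5%), against 6.54% and 6.57% over all genes. Of these 3 the amino acid enzyme gene tat.S fell 5.62-fold (adjusted p = 1.35e-07). The number that rose was 2 without combination replicate 4 and 1 without Zic1GR replicate 5. It was 3 without both arrays together and 4 with array weights.

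The change on adding Pax3 was then set beside its change without Zic1, Pax3GR against GR, a comparison on the other 10 arrays. Pax3GR caps were high in zic1.S, at means of 13.09 and 13.98 on the probe sets given above, so only injected Zic1GR was absent there. Without Zic1, 10321 probe sets (50.3%) were called, 5611 higher and 4710 lower, and the median size of the difference over all 20519 probe sets was 0.587. With Zic1 active it was 0.303. Of the 1446 probe sets that rose with Zic1, 922 also rose without it, which is 63.8% of the former and 16.4% of the latter. Of the 1282 that fell, 473 also fell without Zic1, or 36.9% and 10% of each. In opposite directions went 227 that fell with Zic1 and rose without it, or 17.7% of the falls with Zic1 and 4.05% of the rises without it. The reverse held for 109. For scale, 7.05% of all probe sets rose and 6.25% fell with Zic1. Without Zic1, 28.4% of the 8397 genes rose and 23.4% fell, each gene counted by 1 probe set. The shares of 17.7% and 4.05% in opposite directions were thus below those over all features. Across the 20519 probe sets, which are not independent, the differences had a Pearson r of 0.295 and a Spearman rho of 0.156.

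**Figure D4:**
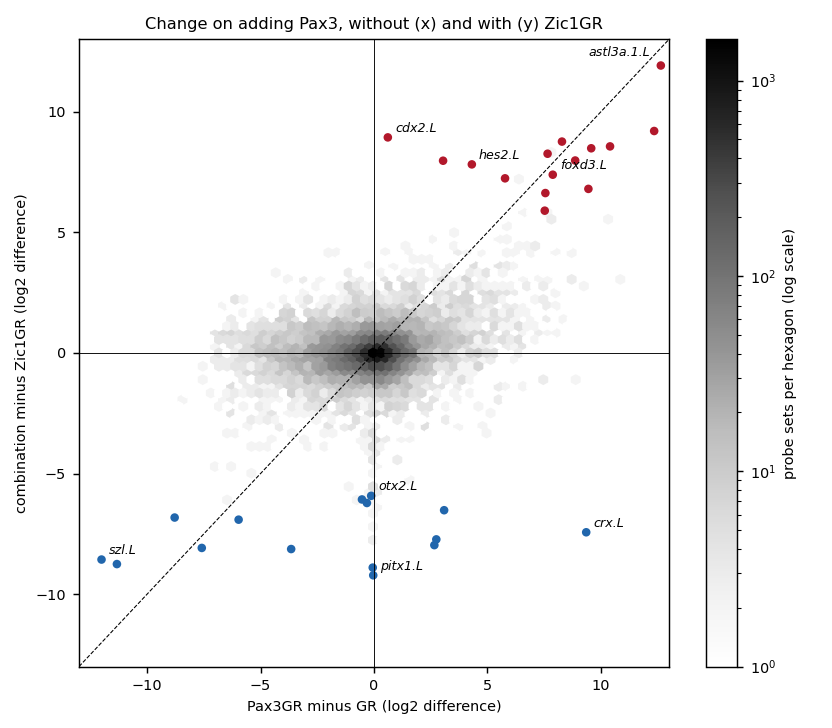
Log2 difference on adding Pax3 without Zic1 (Pax3GR minus GR, x axis) and with Zic1 (combination minus Zic1GR, y axis) for 20519 probe sets, shaded by number per hexagon on a log scale, with the 15 largest rises in red and 15 largest falls in blue; the dashed line marks equal change. Hatching gland and crest genes such as astl3a.1.L and foxd3.L lie near the line, pitx1.L and otx2.L lie below 0 on the y axis and near 0 on the x axis, and crx.L lies in opposite directions.

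The difference of the 2 effects was tested gene by gene, and 7510 of 20519 probe sets (36.6%) were called, 3482 with a larger value under Zic1 and 4028 with a smaller one. Values below log2 4 entered these differences as measured, and they have no firm size where a group was at background. Several of the largest rises showed no called difference. For cdx4.L the change was 8.26 with Zic1 and 7.65 without (difference 0.61, adjusted p = 0.544). The values of foxd3.L were 7.39 and 7.88 (adjusted p = 0.705), and those of astl3a.1.L 11.92 and 12.64 (adjusted p = 0.0731). The last was called without combination replicate 2 or 4 (adjusted p = 0.0235 and 0.0347), and that of cdx4.L with array weights (0.0258). A p that misses the threshold does not show that the effects were equal.

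For other genes the effects differed. The difference of cdx2.L was 8.94 with Zic1 and 0.61 without (adjusted p of the difference 5.79e-06), and it was at background with Zic1GR but not in control caps. Likewise hes2.L and gbx2.2.L changed by 7.82 and 7.97 with Zic1 and by 4.31 and 3.05 without (adjusted p = 4.89e-04 and 4.9e-04). The change of otx2.L was -5.92 with Zic1 and -0.12 without (adjusted p = 3.44e-05), and otx2.L was present in control caps at 10.05 ± 0.82 (SD, n = 5). The genes pitx1.L and smyd1.L, which fell with Zic1, were below log2 4 on all control arrays, so no fall on adding Pax3 could have been seen there. The sizzled genes fell in both settings, to below log2 4 on all Pax3GR and all combination arrays, so the size of either fall is bounded by the starting level.

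Some genes moved in opposite directions. The homeobox gene crx.L averaged 2.12 ± 0.15 in control caps and 11.48 ± 1.1 with Pax3GR alone (SD, n = 5). With Zic1GR it averaged 13.85 ± 0.14, and with both messages 6.42 ± 1.93. Pax3 thus came with a rise of 9.35 alone and a fall of 7.43 beside Zic1, and the difference of -16.79 was the most negative of all named genes (adjusted p = 6.82e-10). The growth factor gene ptn.L rose by 10.90 alone and fell by 3.6 beside Zic1, where combination replicates 3 and 5, at 6.59 and 9.00, lay below the others, at 12.41 to 12.43. The call of that fall was lost when the Pax3GR and GR arrays were left out of the fit (adjusted p = 0.0716). The largest differences the other way were those of tp63.S, 9.69 (adjusted p = 2.11e-07), and of the ubiquitin ligase subunit gene cul5.L, 9.09. The latter was not called between the combination and Zic1GR (adjusted p = 0.73).

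A last set, chosen after its values were seen, was high with Pax3GR alone and averaged below log2 4 in the combination. This choice favours a negative difference of effects, so the adjusted p-values given here describe the set and do not test it. None of those named was called between the combination and Zic1GR. Their adjusted p was 0.932 for six6.L, 0.327 for nes.S, 0.528 for frzb.L and 0.853 for dkk2.L. The eye field gene six6.L averaged 10.78 ± 1.19 with Pax3GR and 1.74 ± 0.06 in the combination (SD, n = 5), with every combination array below 2. Without Zic1 it rose by 9.11, and the difference of effects was -9.04 (adjusted p = 6.82e-10). The neural progenitor filament gene nes.S was at 9.95 ± 1.12 and 3.22 ± 1.14 (difference -6.71, adjusted p = 1.28e-06). The Wnt inhibitor genes frzb.L and dkk2.L followed, at 8.82 and 7.69 with Pax3GR and 3.0 and 2.55 in the combination (adjusted p = 3.01e-05 and 3.58e-06).

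Counts over the lists are set side by side here, each against its own background. Without Zic1, 28.4% of the 8397 genes rose and 23.4% fell. Of the 14 posterior genes 7 rose and 3 fell without Zic1, against 13 and 0 with it. Of the 15 placode genes 7 rose and 2 fell, against 0 and 11 with it. Cement gland genes were 4 risen and 8 fallen of 16, against 0 and 10. Border genes were 15 and 2 of 22, against 13 and 1, and crest genes 12 and 4 of 26, against 9 and 6. The border counts include pax3.S and zic1.S, of the injected genes, as risen in both settings. For the BMP list they were 5 and 23 of 39, against 3 and 18, and for the Wnt list 22 and 5 of 35, against 15 and 4. The multiciliated genes had 1 risen and 25 fallen of 27 without Zic1 and none called with it.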

How the data were processed

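Transcripts of 20 explants were measured on Affymetrix Xenopus laevis arrays, and the authors deposited 1 log2 value per probe set and array. GCRMA and Partek are named per the submitters' processing notes, without versions or roles, and no further step by the authors is given in the sources used here. GCRMA corrects background by probe sequence and squeezes absent transcripts into a narrow low range, so differences between values under log2 4 have no firm size. Precision rests on 5 arrays in each group.

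The file holds 32635 probe sets, and the 96 AFFX controls among them were not used. The array's annotation gave 1 symbol to 15495 of the rest, several to 279 and none to 16765. For 15384 probe sets the symbol was replaced by the RefSeq symbol of the same gene identifier. Probe sets at log2 4 or more on at least 5 of 20 arrays entered a linear model (limma 3.58.1, R 4.3.3) that gave each group 1 mean over all 20 arrays (16 residual degrees of freedom) and eBayes. The fit was tested on simulated data. Adjusted p-values (Benjamini-Hochberg) cover all 20519 probe sets tested.

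The genes named were all pax3 and zic1 probe sets, the 15 largest rises and falls among called genes whose groups did not overlap (ranked with values under 4 set to 4), their homeologues, the 4 largest differences of effects each way, and from each of 28 gene lists up to 3 called members and 1 not called. Others are named as list members or, where stated, were chosen after their values were seen. The members and lists were chosen with earlier results of these data known. Alternatives changed the filter, low values, normalization, variance model, threshold, probe sets, arrays and replicate block. Replicate numbers are not stated to mark a shared clutch, so arrays were not paired in the main fit. Same-numbered arrays of both groups correlated at -0.103 to 0.427 in their deviations from group means. The highest was that of replicate 5, where the same number was also the best match. Whether these arrays shared a source was not tested.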

Additional observations from a re-analysis of the deposited data

Results flagged for a closer look

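Of 287 groups of 5 arrays examined, 17 held an array set apart from the other 4 by more than Dixon's 95% critical value, with values under log2 4 set to 4. Chance alone flags about 1 group in 20, but this rate does not hold where 1 array lies above 4 and the other 4 were set to it. That was so for cnfn.1.L, gbx2.2.L, cxcl12.L, foxa2.L, cebpa.L and tat.S, and nearly so for cybb.L. Among the genes of the largest changes, combination replicate 2 was low for xa-1.L at 12.83, against 13.76 to 14.03, and for the mean of the hatching gland list at 10.9, against 12.4 to 12.81. Zic1GR replicate 3 was high for cnfn.1.L (5.09) and low for cyp26c1.S (11.26, against 12.56 to 13.08). Zic1GR replicate 4 was high for cybb.L (4.86) and for foxa2.L (5.934), and Zic1GR replicate 2 for gbx2.2.L (4.941). Combination replicate 5 was high for cxcl12.L (5.198) and low for zic1.S (Xl2.1796.1.S2_at, 13.47, against 13.83 to 13.89).

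Zic1GR replicate 5, the array nearest to the combination on the first principal component, stood apart for the globin gene hba-l5.L (13.3, against 10.7 to 11.1), for the nucleotide reductase gene rrm2.1.L (13.17, against 13.76 to 13.87) and for cul5.L (10.87, against 5.724 to 6.739). Combination replicate 4 was low for pou5f3.1.L (12.45, against 13.03 to 13.23) and slc4a1.L (9.208, against 9.782 to 9.937). The remaining arrays were combination replicate 1 for cebpa.L (5.048), combination replicate 3 for tat.S (4.691) and Zic1GR replicate 3 for btg2.S (12.49, against 12.16 to 12.22).

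The change on adding Pax3 differed between caps with and without Zic1GR for 23 of the 35 genes examined, by limma's test of the difference on the log2 scale. Over all probe sets tested 36.6% were called. The 4 largest differences each way were picked from genes called in this test, so they had to differ. The others were chosen as the largest changes of the combination over Zic1GR, which is part of the difference. The count is therefore a description. The change was larger with Zic1GR, in the signed sense, for 9. These were cdx2.L by 8.327 (adjusted p = 5.79e-06), gbx2.2.L by 4.925 (0.00049), hes2.L by 3.506 (0.000489), tp63.S by 9.694 (2.11e-07), cul5.L by 9.093 (6.29e-05), foxj1.S by 8.267 (0.0396), tekt2.S by 8.176 (0.0252), szl.S by 2.578 (0.00269) and szl.L by 3.444 (0.00571). For foxj1.S and the ciliary filament gene tekt2.S the combination overlapped with Zic1GR. The call of foxj1.S was lost without any one of 14 of the 20 arrays (adjusted p up to 0.078) and with the replicate block (0.0615), and that of tekt2.S without Zic1GR replicate 1 (0.0505). Both sizzled genes were below log2 4 on all Pax3GR and combination arrays, so their difference restates their starting levels.

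The change was smaller for 14. Homeobox genes were crx.L at -16.79 (adjusted p = 6.82e-10), crx.S at -10.48 (1.73e-08), pitx1.L at -9.185 (3.08e-16) and otx2.L at -5.799 (3.44e-05). Retinoid genes were cyp26c1.S at -10.63 (2.06e-05), crabp2.L at -9.611 (0.000272) and lrat.L at -4.479 (1.79e-07). The others were ptn.L at -14.5 (5.87e-08), smyd1.L at -8.844 (8.7e-11), dusp5.S at -5.908 (1.09e-08), tdgf1.3.L at -5.543 (3.73e-07), xa-1.L at -3.146 (0.00854), gpm6a.L at -2.647 (0.000293) and tbx1.L at -1.088 (0.0464). The last was lost without any one of 14 of the 20 arrays (adjusted p up to 0.0874) and with the replicate block (0.0536). With values under 4 set to 4 the calls of both tbx1.L (0.121) and xa-1.L (0.0518) were lost. The genes pitx1.L and smyd1.L were below log2 4 in control caps and could not fall there, and lrat.L was below it on all Pax3GR and combination arrays, as the sizzled genes were.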

How the results depend on the processing

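With 1 probe set per symbol, which tests fewer features, 1127 were called, 556 rose and 571 fell, 359 rose and 303 fell at least 2-fold, 353 rose and 222 fell with Pax3 in both settings, 3258 differed in effect and 4438 changed without Zic1. At an adjusted p under 0.01, 1501 were called, 827 rose, 674 fell, 523 fell at least 2-fold, 559 rose and 229 fell in both settings, and 4238 differed in effect. Leaving out 1 array gave 2143 (Zic1GR replicate 2) to 3369 (Zic1GR replicate 5) called, 1170 to 1721 risen and 973 to 1648 fallen, of which 862 to 1146 and 669 to 938 were at least 2-fold. It gave 6307 (combination replicate 5) to 8610 (Zic1GR replicate 5) differences of effects and 9462 to 10837 changes without Zic1. Without combination replicate 4 and Zic1GR replicate 5 together 2920 were called. The replicate block gave 2617 called, 7517 differences of effects and 10264 changes without Zic1. Among named genes it ended only the calls of the differences of effects of tbx1.L and foxj1.S. Same-numbered arrays shared only a number in the labels. Array weights gave 3684 called, and the fit without Pax3GR and GR arrays 1979.

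Of 4270 values of named genes under these alternatives, 4130 kept direction and side of the threshold, 102 lost a call, 11 gained one and 27 reversed, all of them not called. Many named genes were picked for large changes or small adjusted p in these same data. The number kept therefore follows largely from the choice and describes these genes only. Across single arrays left out, the difference ran from -0.04266 to 0.05559 for ctnnb1.L, -0.03203 to 1.521 for cul5.L, -0.798 to 0.1488 for foxf1.L, -0.5118 to 0.1313 for gata6.L, -0.08062 to 0.006405 for itgb1.L, -0.2408 to 0.09308 for meis2.L and -0.1132 to 0.08733 for tubb4b.L. The difference of effects ran from -0.001413 to 0.9909 for cnfn.1.L and from -0.9235 to 0.1223 for foxd3.L. Without combination replicate 4 and Zic1GR replicate 5 together, ctnnb1.L was at 0.008175, gata6.L at 0.04569 and itgb1.L at 0.00255. With array weights ctnnb1.L was at 0.05574, itgb1.L at 0.008439, tubb4b.L at 0.04239 and the difference of effects of cnfn.1.L at -0.1109, and with quantile normalization ctnnb1.L was at 0.01619. With values under 4 set to 4 the differences of effects were -0.3897 for cnfn.1.L, 0.2194 for cybb.L, 0.3373 for foxd3.L and 0.7664 for mfap2.L. The cause of these reversals was not tested. Of 208 list members called, 176 stayed called without any one array. Quantile normalization and a common median moved the median difference by 0.00445 and -0.0199. Changes of genes under log2 4 in both groups were not detectable.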
